A study of Mus musculus with 12 samples.

Results

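The genes described here are 10 epithelial genes of mouse liver: the keratins Krt8, Krt18, Krt7, Krt19 and Krt23, the duct and progenitor genes Epcam, Sox9 and Cd24a, the secreted peptide Tff3, and Sprr1a, a gene of stressed epithelium. They were chosen by their measured values in these same livers together with their known roles, so their differences between groups are given as a description and support nothing by themselves. The deposited table holds 24296 gene symbols, of which these are 10, and 7 of the 10 were among the 13158 genes abundant enough to be tested, with a mean of at least 0.5 FPKM (fragments per transcript, scaled to the transcript's length and to all fragments of the liver) over all livers.

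RNA was sequenced from 12 livers of male C57/BL6N mice, 3 in each of 4 groups, to ask how phloridzin, a plant glucoside that blocks sodium-glucose cotransport, acts on liver fibrosis. The control group is labelled wild type, and no vehicle is named for it. The model group received carbon tetrachloride (CCl4), a toxin that kills hepatocytes around the central veins, in olive oil at 5 mL/kg, injected into the abdomen 2 times a week for 8 weeks. The silibinin group and the phloridzin group received CCl4 in the same way, and from week 5 also the flavonolignan silibinin or phloridzin. The labels give no dose of either drug. The study's text states doses for both drugs and describes the sequenced phloridzin livers as its high-dose group. Age is not given, the labels pair no livers across groups, and the livers of a group are labelled as separate samples.

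Hepatocytes build their intermediate filaments from the partner keratins Krt8 and Krt18, while the cells that line bile ducts add Krt7 and Krt19. In chronic injury, duct-like cells that carry Epcam, Sox9 and Cd24 can spread from the portal tracts, a change called the ductular reaction, and injured hepatocytes can make more Krt8 and Krt18 and switch on genes otherwise seen in skin, gut or fetal liver. Trefoil peptides such as Tff3 protect mucosal surfaces, and small proline-rich proteins such as Sprr1a are cross-linked into the cornified envelope of squamous cells and are also made by several injured tissues.

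Between 83700000 and 110900000 fragments stood behind each liver, as worked out from the steps between low values. Hepatocyte genes were abundant in every liver, with Alb, serum albumin, between 10970 and 29357 FPKM. Phloridzin replicate 1 stood somewhat apart from its group: its mean correlation with the other phloridzin livers across genes was 0.920, against 0.936 and 0.934 for phloridzin replicates 2 and 3 and 0.940 to 0.952 for the livers of the other groups. Its closest liver was silibinin replicate 2, while phloridzin replicates 2 and 3 were each closest to silibinin replicate 3. Silibinin replicate 3 was in turn closest to phloridzin replicate 2 (0.953), and not to a liver of its own group. Values without single livers are therefore given beside the results that rest on them. Genes are not independent replicates, and these correlations only describe likeness.

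**Figure D1:**
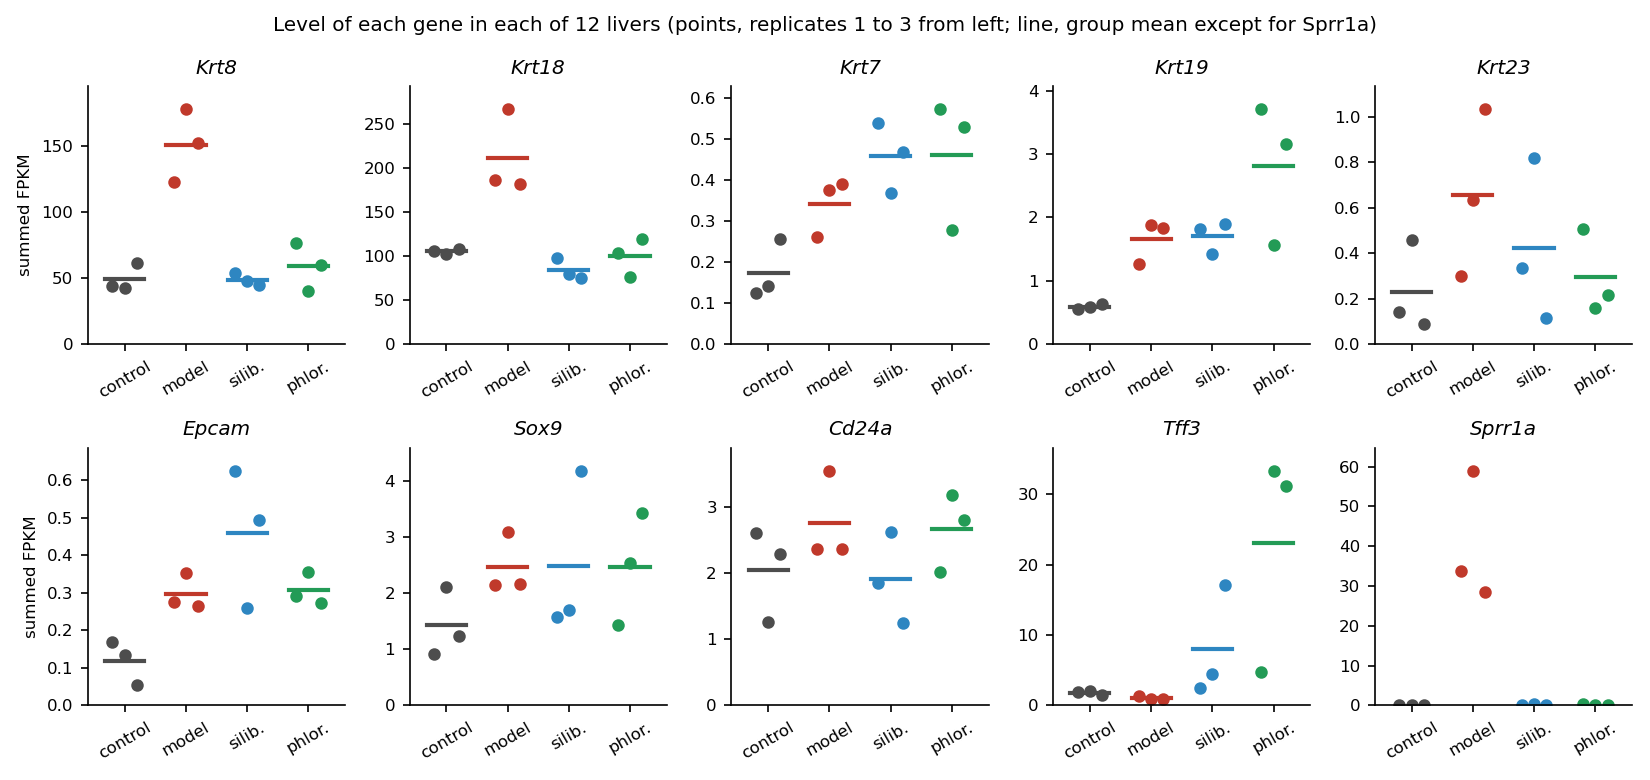
Summed FPKM (y axis) of each of the 10 genes in the 12 livers, one panel a gene with its own axis from 0; points are livers coloured by group, in replicate order from the left, and lines are group means (none for Sprr1a, which is listed at 0 in several livers). Krt8, Krt18 and Sprr1a were highest in all 3 model livers, Krt19 lay above control in the other 3 groups, and Tff3 was highest in phloridzin replicates 2 and 3.

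Krt8, the type II keratin of simple epithelia, measured 43.7, 42.1 and 61.0 FPKM in control replicates 1 to 3, 123, 177 and 152 FPKM in the model livers, 53.5, 47.9 and 44.4 FPKM with silibinin and 76.5, 40.1 and 60.0 FPKM with phloridzin. All 3 model livers lay above every other liver, while the control, silibinin and phloridzin groups overlapped. The means were 48.9 ± 10.5 (SD, n = 3) FPKM in control, 151 ± 27.3 in the model, 48.6 ± 4.57 with silibinin and 58.9 ± 18.2 with phloridzin. On the log2(FPKM + 1) scale, which understates the change of low genes, Krt8 was higher in model than in control livers by 1.61 ± 0.24 (SE). The difference was -1.60 ± 0.24 in silibinin against model livers and -1.37 ± 0.24 in phloridzin against model livers. These bulk measurements cannot tell more RNA per cell from more cells of a type, nor less RNA per cell from fewer such cells.

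Krt18, the type I partner of Krt8, followed a similar order at a higher level. It measured 106, 103 and 107 FPKM in control livers, 186, 267 and 182 FPKM in model livers, 97.8, 79.7 and 75.4 FPKM with silibinin and 104, 76.4 and 119 FPKM with phloridzin. Again all 3 model livers lay above every other liver, all 3 silibinin livers lay below every control liver, and the phloridzin livers spread around the control values. The log2 difference was 0.98 ± 0.20 for model against control, -1.30 ± 0.20 for silibinin against model and -1.08 ± 0.20 for phloridzin against model.

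Both genes lie on chromosome 15, 23697 bases apart, Krt8 at chr15:101996698-102004482 on the minus strand and Krt18 at chr15:102028180-102032027 on the plus strand, and each is represented by 1 transcript. Filaments take up both proteins in equal amounts, and the ratio of their FPKM values was not the same in all livers. Krt8 over Krt18 was 0.413, 0.409 and 0.567 in control livers, 0.660, 0.665 and 0.835 in model livers, 0.547, 0.601 and 0.589 with silibinin and 0.737, 0.525 and 0.503 with phloridzin. The model ratios lay above all control and silibinin ratios, with a mean of 0.720 ± 0.0993 (SD, n = 3) against 0.463 ± 0.0901 in control, and phloridzin replicate 1 fell among the model livers. The pseudogene Krt8-ps, whose reads could be mixed with those of Krt8, had a mean of 0.502 FPKM over the 12 livers, little beside the Krt8 level of any liver.

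A gene was called where limma gave a Benjamini-Hochberg adjusted p below 0.05 and the log2 difference was above 1 or below -1. In model against control livers 1382 of 13158 tested genes were called (10.5 percent), 1240 higher and 142 lower, and 2 of the 7 tested members were among them, Krt8 and Sprr1a. In silibinin against model livers 526 genes were called (4.0 percent), 98 higher and 428 lower, with 3 members, Krt8, Krt18 and Sprr1a, all lower. In phloridzin against model livers 463 genes were called (3.52 percent), 79 higher and 384 lower, with 4 members, Krt8, Krt18 and Sprr1a lower and Tff3 higher. Since the members were selected on these contrasts, nothing is read from how their counts compare with the percentages. Krt18 stood at the edge of the rule: against control it passed the rule only without model replicate 1 (1.06) or 3 (1.07). In phloridzin against model livers it missed the rule without model replicate 2 (-0.90), without phloridzin replicate 2 (-0.90) and in a fit of these 2 groups alone (-1.08).

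The scaling between livers matters for these values, because most genes read higher in the model livers as deposited. The median log2 difference of all tested genes was 0.34 for model against control and -0.01 after each liver was divided by its median ratio to the geometric mean over genes. The share of called genes that were higher went from 89.7 to 51.0 percent. For the other comparisons the median moved from -0.15 to 0.01 (silibinin against model), from -0.11 to 0.03 (phloridzin against model), from 0.16 to -0.03 (silibinin against control) and from 0.18 to -0.03 (phloridzin against control). The share higher among called genes moved from 18.6 to 44.4, from 17.1 to 36.8, from 87.7 to 71.8 and from 90.5 to 73.6 percent in the same order.

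After this scaling Krt8 kept its direction and its call against the model, at 1.14 ± 0.23 for model against control, -1.38 ± 0.23 for silibinin against model and -1.19 ± 0.23 for phloridzin against model. Krt18 kept its direction, at 0.50 ± 0.20, -1.09 ± 0.20 and -0.89 ± 0.20, and the last of these no longer passed the rule. Against control, the small Krt8 differences changed sign: the silibinin value went from 0.01 to -0.24, the phloridzin value from 0.24 to -0.05. Single livers moved the phloridzin value as deposited from 0.026 without phloridzin replicate 1 to 0.48 without phloridzin replicate 2. Krt18 was below control with either drug in both versions, at -0.33 and then -0.58 with silibinin and at -0.10 and then -0.39 with phloridzin.

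**Figure D2:**
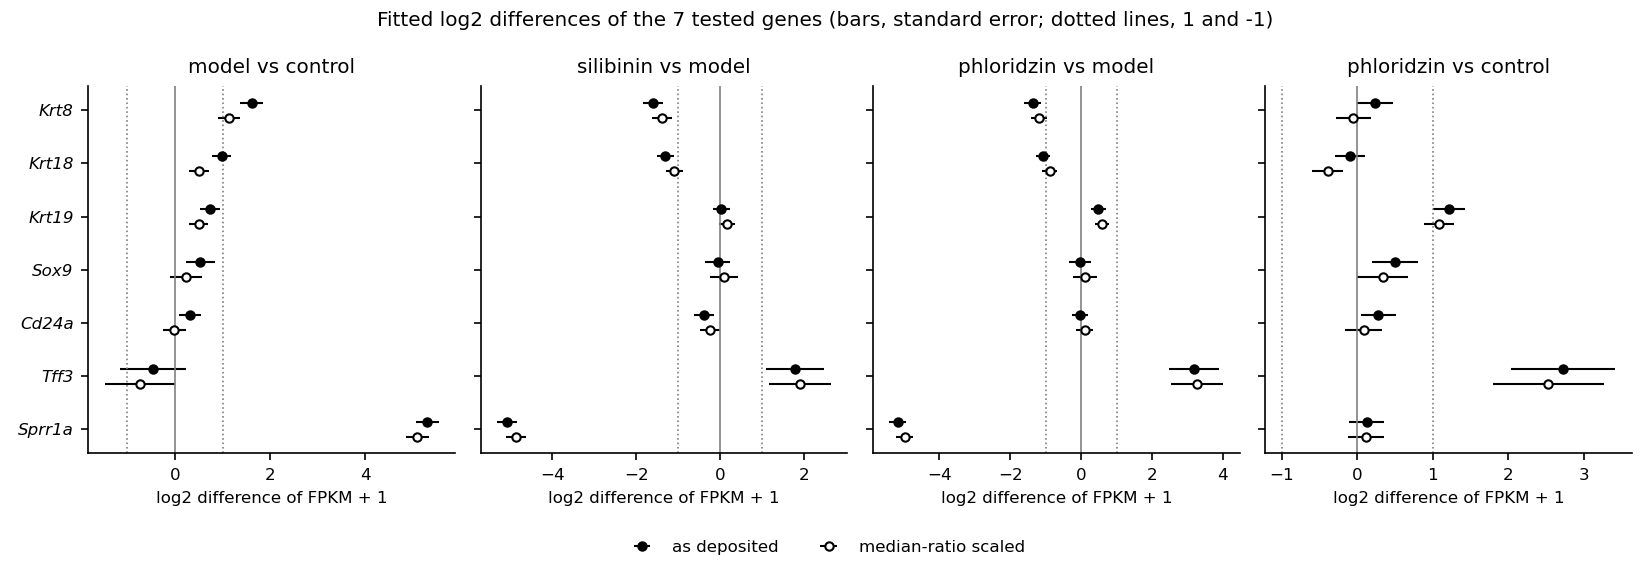
Log2 differences of FPKM + 1 (x axis) of the 7 tested genes in 4 comparisons, with standard errors as bars; filled points are values as deposited, open points are after median-ratio scaling, and dotted lines mark 1 and -1. Krt8, Krt18 and Sprr1a lay on the positive side for model against control and on the negative side for both drugs against the model, while Krt19 and Tff3 lay above 1 for phloridzin against control in both versions.

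The duct keratins Krt19 and Krt7 were far less abundant than Krt8 and Krt18 and had another order of groups. Krt19, the type I keratin of duct cells, measured 0.549, 0.591 and 0.625 FPKM in control livers, 1.26, 1.88 and 1.83 FPKM in model livers, 1.81, 1.42 and 1.90 FPKM with silibinin and 3.70, 1.57 and 3.15 FPKM with phloridzin. Every liver given CCl4 lay above every control liver, also after median-ratio scaling, the model and silibinin livers overlapped, and phloridzin replicates 1 and 3 held the highest values while phloridzin replicate 2 lay among the model livers. These values rest on 91 to 596 fragments per liver.

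The log2 difference of Krt19 was 0.73 ± 0.21 for model against control, 0.77 ± 0.21 for silibinin against control and 1.22 ± 0.21 for phloridzin against control. Against the model the difference was 0.03 ± 0.21 for silibinin and 0.48 ± 0.21 for phloridzin. The phloridzin value was 0.31 without phloridzin replicate 1 and 0.74 without phloridzin replicate 2, neither past the rule. In phloridzin against control livers 398 genes were called (3.02 percent), and Krt19 and Tff3 were the members among them. In silibinin against control livers 261 genes were called (1.98 percent) and 0 of the 7 members by limma, where 2830 genes had an unadjusted p below 0.05, Krt19 the only member among them. Because Krt19 is near the added value of 1, its differences were larger with smaller pseudocounts: with 0.1 they were 1.33 for model and 1.39 for silibinin against control, and with 0.01 they were 1.46 and 1.52, all past the rule. In a fit of limma's voom to the recovered fragment numbers, chosen after seeing the data, they also passed it, at 1.48 and 1.52, with 2.15 for phloridzin. The phloridzin call was lost only in the fit of the 2 groups alone (1.22). After median-ratio scaling the differences from control were 0.50 in the model, 0.67 with silibinin and 1.09 with phloridzin, only the last past the rule.

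Krt7, the type II keratin that pairs with Krt19 in ducts, was under the abundance needed for the limma test. It was listed at 0.125, 0.141 and 0.256 FPKM in control livers, 0.260, 0.375 and 0.390 FPKM in model livers, 0.540, 0.370 and 0.469 FPKM with silibinin and 0.572, 0.278 and 0.531 FPKM with phloridzin, from 28 to 207 fragments per liver. As deposited, every liver given CCl4 lay above every control liver, model replicate 1 above control replicate 3 by little. After median-ratio scaling control replicate 3, at 0.321 FPKM, lay above model replicate 1 (0.219) and phloridzin replicate 2 (0.282), and only the silibinin livers still lay above all controls. The order of group means as deposited was control, model, silibinin, phloridzin for both duct keratins. For Krt7 the silibinin and phloridzin means, 0.4597 and 0.4603 FPKM, hardly differed. Their log2 difference, phloridzin against silibinin, had the other sign (-0.0038), so that step of the order is not settled. The model, silibinin and phloridzin groups overlapped for Krt7 as deposited. Of the summed Krt7 level, 49.8 percent came from its coding transcript and 31.9 percent from a transcript annotated with a retained intron. In control replicate 3 the whole value came from the latter, with the coding transcript listed at 0. For the coding transcript alone, control replicate 1 (0.125 FPKM) lay above model replicate 1 (0.0613 FPKM) and silibinin replicate 1 (0.0984 FPKM). A transcript without a gene symbol on the same strand inside Krt7, NONMMUT025089.2 at chr15:101411052-101412395, was listed at 0.318 FPKM in phloridzin replicate 3, 0.0842 FPKM in model replicate 2 and 0 in the other livers. Voom, which did test Krt7, gave 0.96 ± 0.53 for model, 1.62 ± 0.49 for silibinin and 1.64 ± 0.49 for phloridzin against control, none past the rule, and with no filter limma gave 0.19, 0.31 and 0.31, none past it either.

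Krt7 and Krt19 are also made by the mesothelium that covers the liver, and markers of that layer moved in the same livers. The summed level of 7 mesothelial markers was 1.47, 1.40 and 2.62 FPKM in control livers, 6.70, 8.26 and 13.4 FPKM in model livers, 14.8, 9.16 and 9.32 FPKM with silibinin and 19.7, 6.55 and 11.5 FPKM with phloridzin. Like Krt19 it was highest in phloridzin replicate 1, and phloridzin replicate 2 was the lowest of its group. Other livers differed in order: phloridzin replicate 3, second highest for Krt19, lay below silibinin replicate 1 and model replicate 3 in this sum. Of the 5 markers tested, 1 rose in the model (Wt1, 1.75 ± 0.20), 3 with silibinin (Wt1, Upk3b and Upk1b) and 4 with phloridzin (Msln, Wt1, Upk3b and Upk1b), each against control. At an unadjusted p below 0.05 these were 4, 5 and 5, and voom, which tested 7, called 4 in each of the 3 groups. Of all 13158 genes tested by limma, 6030, 2830 and 3235 differed in either direction at the unadjusted cut. After median-ratio scaling limma called 1, 2 and 3 markers, with 3, 5 and 5 higher at the unadjusted cut. Without single livers it called 1 to 2, 1 to 4 and 1 to 5, so the order of these counts is not settled. Against the model 0 were called with either drug by limma or voom, and 0 had an unadjusted p below 0.05. Msln, mesothelin, was the most abundant at a mean of 2.77 FPKM, and Lrrn4 and Gpm6a stayed under 0.5 FPKM in every liver.

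The summed level of 18 cholangiocyte markers was 26.5, 29.1 and 38.7 FPKM in control livers, 77.6, 95.5 and 74.7 FPKM in model livers, 63.5, 79.8 and 45.2 FPKM with silibinin and 68.9, 61.4 and 43.9 FPKM with phloridzin. Its most abundant gene was Spp1, osteopontin, which macrophages and other cells also make, at a mean of 30.3 FPKM and between 34.5 and 68.2 percent of the sum. Of the 10 markers tested, 2 rose in the model, Spp1 (1.94 ± 0.39) and Bicc1 (1.38 ± 0.15), and Bicc1 alone with silibinin (1.04 ± 0.15) or phloridzin (1.09 ± 0.15) against control. At an unadjusted p below 0.05, 6 were higher in the model, 3 with silibinin and 2 with phloridzin. Voom, which tested 16, called 4, 1 and 1. Of all 13158 genes tested by limma, 6030, 2830 and 3235 differed in either direction at the unadjusted cut. After median-ratio scaling Spp1 and Bicc1 were still called in the model, and Bicc1 no longer with either drug. At the unadjusted cut 3, 2 and 2 markers were then higher. Against the model limma and voom called 0 with either drug. At the unadjusted cut 3 were lower with silibinin and 2 with phloridzin, beside 3844 and 3662 of all genes in either direction. After scaling 1 was lower with each drug and 1 higher with silibinin. The defining markers Cftr, Sctr and Cldn4 stayed under 0.5 FPKM in every liver. The part of duct cells and of mesothelium in the Krt19 and Krt7 values was not tested.

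**Figure D3:**
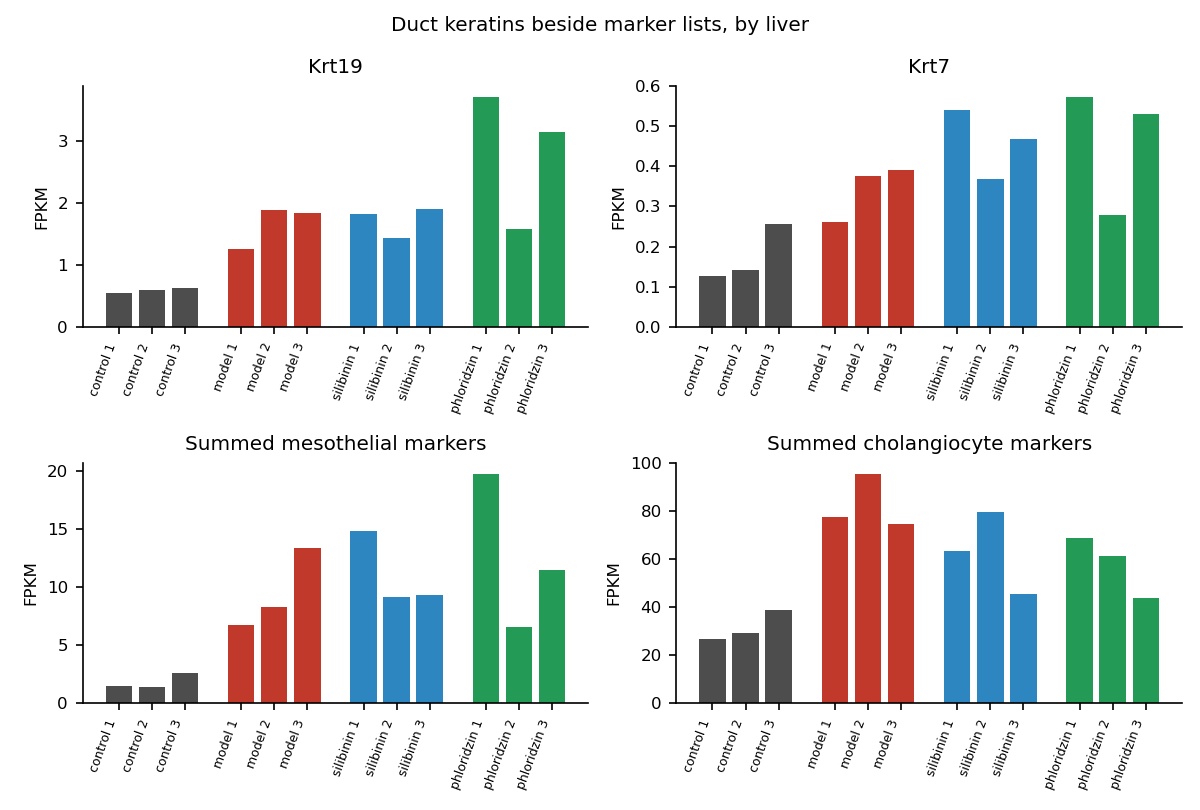
FPKM (y axis, from 0) of Krt19 and Krt7 and the summed FPKM of the mesothelial and cholangiocyte marker lists in each of the 12 livers, coloured by group. Krt19 and the mesothelial sum were both highest in phloridzin replicate 1, at 3.70 and 19.7 FPKM, whereas the cholangiocyte sum was highest in model replicate 2, at 95.5 FPKM.

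Epcam, a cell adhesion molecule of duct and progenitor cells, was the least abundant member. It was listed at 0.168, 0.136 and 0.0537 FPKM in control livers, 0.275, 0.353 and 0.264 FPKM in model livers, 0.625, 0.261 and 0.494 FPKM with silibinin and 0.293, 0.356 and 0.274 FPKM with phloridzin. Every liver given CCl4 lay above every control liver, also after median-ratio scaling, and the 3 CCl4 groups overlapped. With 12 to 136 fragments per liver, Epcam was under the abundance needed for the limma test. Against control voom gave 1.46 ± 0.55 for the model and 1.99 ± 0.52 for silibinin, with phloridzin between them, none past the rule, and with no filter limma gave 0.21, 0.38 and 0.23, none past it either. Krt23, a keratin found in injured and tumour epithelium, was also under it, at 0.140, 0.460 and 0.0875 FPKM in control livers, 0.298, 0.636 and 1.03 FPKM in model livers, 0.335, 0.818 and 0.116 FPKM with silibinin and 0.507, 0.159 and 0.214 FPKM with phloridzin. All 4 groups overlapped for Krt23, and the spread within the model and silibinin groups was wider than the distance between their means of 0.656 and 0.423 FPKM.

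Sox9, the transcription factor of duct and progenitor cells, measured 0.915, 2.11 and 1.24 FPKM in control livers, 2.14, 3.08 and 2.16 FPKM in model livers, 1.57, 1.71 and 4.18 FPKM with silibinin and 1.43, 2.54 and 3.42 FPKM with phloridzin. As deposited the model livers lay above the control livers, control replicate 2 by little, and both drug groups overlapped control and model. After median-ratio scaling model replicates 1 and 3, at 1.80 and 1.85 FPKM, lay below control replicate 2 at 2.47 FPKM. The log2 differences, 0.53 ± 0.31 for model against control, -0.06 ± 0.31 for silibinin and -0.03 ± 0.31 for phloridzin against the model, did not pass the rule. The last 2 became 0.10 and 0.10 after median-ratio scaling, so their sign is not settled.

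Sox9 is uncertain for another reason. A transcript without a gene symbol, NONMMUT012603.2 of the NONCODE collection, lies at chr11:112786925-112787750 on the same strand, wholly inside exon 3 of Sox9 (chr11:112784672-112787760) and after its stop codon, so fragments from that stretch can be given to either one. It was listed at 1.14, 0.525 and 1.47 FPKM in control livers, 3.30, 5.19 and 3.03 FPKM in model livers, 2.27, 2.60 and 0.132 FPKM with silibinin and 2.12, 0.254 and 0.467 FPKM with phloridzin. In control replicate 2 and silibinin replicate 3, where Sox9 read highest in its group, the transcript read lowest in its group. Likewise phloridzin replicates 2 and 3 read above replicate 1 for Sox9 and below it for the transcript. In the model group replicate 2 was highest for both. Sox9 rested on 398, 948 and 564 fragments in control replicates 1 to 3 and on 692, 782 and 1901 with silibinin. Fragments of the transcript were not counted, and how far their assignment accounts for the spread of Sox9 within groups was not tested.

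Adding both, as an alternative chosen after seeing the data, gave 2.05, 2.64 and 2.71 FPKM in control livers, 5.44, 8.27 and 5.19 FPKM in model livers, 3.84, 4.30 and 4.31 FPKM with silibinin and 3.55, 2.80 and 3.89 FPKM with phloridzin. The spread within the control, silibinin and phloridzin groups became smaller and that within the model group larger. FPKM is scaled to length, and the transcript spans 826 bases against 4135 bases for Sox9. A fragment given to the transcript therefore adds more to this sum than a fragment given to Sox9. The level of Sox9 with those fragments returned to it was not computed, and the sum does not stand for it. As deposited the sum of every model liver lay above that of all others, and the sum of every drug-treated liver above that of every control liver. After median-ratio scaling silibinin replicate 3 (4.67 FPKM) lay above model replicates 1 and 3 (4.57 and 4.44 FPKM), and phloridzin replicates 1 and 2 (3.17 and 2.84 FPKM) lay below control replicate 3 (3.40 FPKM). The log2 difference of the sum for model against control was 1.05 ± 0.17 as deposited, past the rule, and 0.68 ± 0.18 after scaling, not past it. Against the model it was -0.48 ± 0.17 for silibinin and -0.71 ± 0.17 for phloridzin as deposited and -0.29 ± 0.18 and -0.55 ± 0.18 after scaling.

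**Figure D4:**
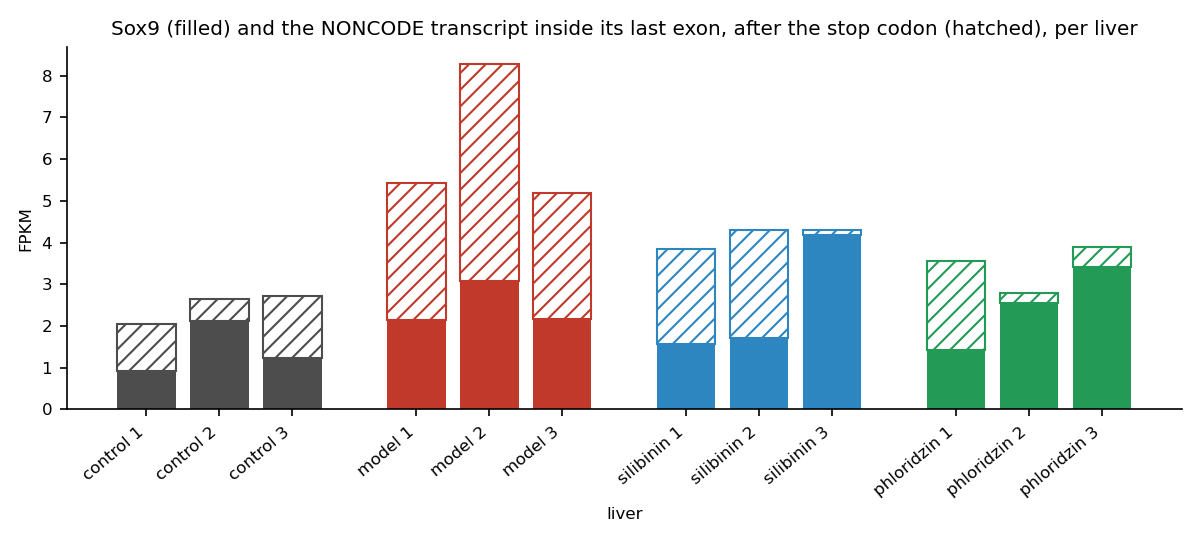
FPKM (y axis, from 0) of Sox9 (filled) and of the NONCODE transcript inside its last exon (hatched, stacked on top) in each of the 12 livers, coloured by group. The sum was 5.19 to 8.27 FPKM in the model livers and at most 4.31 FPKM elsewhere as deposited, a gap that median-ratio scaling closed for silibinin replicate 3, while the split between both differed among livers of one group. The hatched transcript is shorter than Sox9, so a fragment given to it adds more FPKM than one given to Sox9.

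Cd24a, a glycosylated surface protein of duct and progenitor cells and of many blood cells, overlapped across the groups. It measured 2.61, 1.26 and 2.29 FPKM in control livers, 2.37, 3.54 and 2.36 FPKM in model livers, 1.85, 2.62 and 1.25 FPKM with silibinin and 2.02, 3.18 and 2.80 FPKM with phloridzin. The highest value was model replicate 2, the lowest silibinin replicate 3, and no group lay apart from another. The difference of 0.31 ± 0.23 for model against control, from 0.11 without control replicate 2 to 0.45 without control replicate 1, became -0.02 after median-ratio scaling, and that of -0.03 ± 0.23 for phloridzin against model became 0.10. With silibinin Cd24a was -0.38 ± 0.23 against the model, -0.21 without silibinin replicate 3 and -0.23 after scaling, in no version past the rule. B cells also carry Cd24a: of 4 tested B cell markers, led by Ighm, 0 were called in model against control livers by limma. Voom called 2. At an unadjusted p below 0.05, 3 were higher as deposited and 1 after median-ratio scaling. As deposited 6030 of 13158 genes passed that cut in either direction. The summed level of 5 B cell markers ran from 1.04 to 2.56 FPKM in control livers and from 3.42 to 11.7 FPKM elsewhere, highest in silibinin replicate 2. Their part in the Cd24a values was not tested.

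Tff3, a secreted trefoil peptide of mucous epithelium, measured 1.85, 2.08 and 1.48 FPKM in control livers, 1.36, 0.880 and 0.891 FPKM in model livers, 2.51, 4.52 and 17.1 FPKM with silibinin and 4.69, 33.3 and 31.3 FPKM with phloridzin. All model livers lay below all control livers, and every drug-treated liver lay above both groups. Within the silibinin group replicate 3 was well above the other livers, and within the phloridzin group replicate 1 was well below them. The fragments behind these values ran from 44 in model replicates 2 and 3 to 1721 in phloridzin replicate 2.

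The log2 difference of Tff3 was -0.46 ± 0.69 for model against control, 1.80 ± 0.69 for silibinin against model and 3.18 ± 0.69 for phloridzin against model. Only the last passed the rule, and it did not without phloridzin replicate 2 (2.74) or 3 (2.78), in the fit of the 2 groups alone (3.18) or by voom (4.06). The silibinin difference passed it without phloridzin replicate 1, which shares in the estimate of the spread, and was 1.12 without silibinin replicate 3. Against control the difference was 1.34 ± 0.69 with silibinin (0.66 without silibinin replicate 3) and 2.73 ± 0.69 with phloridzin. The latter passed the rule as deposited but in only 13 of 27 alternatives: it did not after median-ratio scaling (2.53), without any single control liver (2.74, 2.80 and 2.64 without replicates 1, 2 and 3), without any single model liver or silibinin replicate 2 (2.73 each), or without phloridzin replicate 2 (2.28) or 3 (2.32). It was also lost with all genes tested, with the most abundant transcript of each gene alone or in the fit of the 2 groups alone (2.73 each), and by voom (3.24). All these values stayed above 1, and the loss of the call lay in the adjusted p. Phloridzin and silibinin livers differed by 1.39 ± 0.69, not past the rule, from 0.88 without silibinin replicate 1 to 2.24 without phloridzin replicate 1.

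The other trefoil genes, Tff1 and Tff2, were under 0.5 FPKM in every liver, and their sum was highest in phloridzin replicate 2, at 0.532 FPKM. Of 8 intestinal epithelium markers 5 were measured here. Only Fabp2, a fatty acid binding protein, was tested by limma, at a mean of 20.7 FPKM. Voom tested 2 and called 0 in any comparison. The markers Muc2, Fcgbp, Spink4 and Agr2 stayed under 0.5 FPKM in every liver. Of these, Spink4 was listed at 0.300 FPKM in phloridzin replicate 2 and at 0 in the other livers, and Fcgbp was highest in that liver, at 0.173 FPKM. The summed intestinal markers were 22.7 FPKM in silibinin replicate 3, 21.7 FPKM in phloridzin replicate 2 and 16.9 FPKM in phloridzin replicate 3, within the range of the control livers (16.1 to 25.2 FPKM), but at least 97.0 percent of this sum was Fabp2 in every liver. The sum was 11.4, 15.3 and 19.4 FPKM in the model livers. Silibinin replicate 1 (26.4 FPKM) and phloridzin replicate 1 (31.2 FPKM) lay above all control livers. Against the model Fabp2 was higher with silibinin (0.69) and phloridzin (0.56) at an unadjusted p below 0.05, neither past the rule. The part of intestinal cells in the Tff3 values was not tested. Of 7 pancreatic acinar markers 5 were measured here, 0 of them abundant enough for the limma test, and their sum was at most 0.764 FPKM. Voom tested 1 of them and called 0 in any comparison.

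By the smallest root-mean-square distance of log2(FPKM + 1), each centred on its mean over the 12 livers, the genes most like Tff3 among 11604 were Etnppl, a phospholyase of ethanolamine phosphate, at a distance of 0.75, Cyp7a1, the rate-limiting enzyme of bile acid synthesis, at 0.76, and Cib3 at 0.89. Tff3 itself spread by 1.47 around its mean, so the likeness is partial. Cyp7a1 measured 36.7, 26.9 and 22.9 FPKM in control livers, 24.1, 3.64 and 23.4 FPKM in model livers, 38.0, 35.7 and 107 FPKM with silibinin and 43.3, 135 and 105 FPKM with phloridzin. As with Tff3, silibinin replicate 3 and phloridzin replicates 2 and 3 were its highest livers.

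Sprr1a, a small proline-rich precursor of the cornified envelope, differed most among the members. It was listed at 0 in control replicates 1, 2 and 3. The model livers measured 33.8, 58.9 and 28.4 FPKM, the silibinin livers 0.233, 0.269 and 0 FPKM and the phloridzin livers 0.292, 0 and 0 FPKM. All 3 model livers stood far above the rest, where no value reached 0.3 FPKM, and behind them were 2276, 4819 and 2294 fragments against at most 24 in any other liver. Since an exact 0 in such a table can be a failed estimate (S100a9 is listed at 0 in 7 livers in which its partner S100a8 measured 7.71 to 34.0 FPKM), no fold is given against the livers listed at 0.

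The fitted log2(FPKM + 1) values of Sprr1a, which depend on the added 1, were 5.30 ± 0.23 for model against control, -5.09 ± 0.23 for silibinin against model and -5.18 ± 0.23 for phloridzin against model. Sprr1a met the abundance needed for the test only through the model livers, and it was chosen with these values known. That all 3 differences passed the rule in 27 of 27 alternatives is therefore a description and no support. Sprr1a differed by -0.09 ± 0.23 between phloridzin and silibinin livers.

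The window of 250 bases before the RefSeq start of Sprr1a is printed because this gene separated the groups most. It lies at chr3:92485882-92486131 of GRCm38.p6, on the minus strand like the gene, and reaches a few bases into the first exon as the deposited transcript is drawn. Capitals mark 2 matches to the AP-1 motif TGANTCA, at -146 to -140 and -116 to -110 from the start:
Sprr1a: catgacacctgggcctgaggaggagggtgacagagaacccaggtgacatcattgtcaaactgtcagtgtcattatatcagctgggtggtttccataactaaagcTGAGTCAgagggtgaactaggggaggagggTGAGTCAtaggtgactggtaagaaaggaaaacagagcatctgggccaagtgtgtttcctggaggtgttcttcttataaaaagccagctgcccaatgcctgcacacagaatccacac

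TGANTCA was found on either strand in 6.75 percent of the 32851 RefSeq promoter windows of the same length. The other motifs searched were TGATGNAA (an ATF4-C/EBP element, in 3.45 percent), GGAATG (TEAD, in 12.6 percent) and GTGGGAA (RBPJ, in 5.42 percent). RefSeq promoters were at hand for 6 of the 10 members: Sprr1a, Krt8, Krt18, Krt7, Krt23 and Epcam. Krt8 had 1 match, GTGGGAA at -135 to -129, which lies in the first exon of the deposited transcript, and Krt18, Krt7, Krt23 and Epcam had none of the 4 motifs. A match is a description of letters and not a binding site.

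Genes around Sprr1a in the epidermal differentiation complex, a cluster of cornified envelope and S100 genes, ranged widely. Of 28 such genes 20 were measured here, 13 of these under 0.5 FPKM in every liver, while S100a10 had a mean of 109 FPKM. The close relative Sprr1b of Sprr1a was listed at 0.115, 0.0713 and 0.205 FPKM in the model livers and at 0 in all other livers. Of the complex 7 genes were abundant enough for the test, and 3 of these rose in the model, S100a11 (2.27 ± 0.45), S100a6 (1.41 ± 0.34) and S100a4 (1.35 ± 0.20). Of 6 squamous epithelium markers 5 were measured here, among them Krt5 and Krt14, and 0 were abundant enough for the limma test. Their sum was 0.281, 1.32 and 0.311 FPKM in control livers, 0.394, 1.12 and 1.40 FPKM in model livers, 0.561, 0.428 and 0.229 FPKM with silibinin and 1.17, 0.499 and 0.629 FPKM with phloridzin, so the groups overlapped. Voom tested 3 of them and called 1 higher in model than in control livers, Lor, a cornified envelope protein named after its values were seen. Of 48 other keratins 18 were measured here, and 0 of them reached the abundance for the limma test. Voom tested Krt10, Krt14 and Krt80, named after their values were seen, and called Krt80 higher in the model, with silibinin and with phloridzin, each against control. Its means were 0.0531 ± 0.0385 FPKM (SD, n = 3) in control, 0.329 ± 0.158 in the model, 0.316 ± 0.170 with silibinin and 0.523 ± 0.120 with phloridzin.

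The genes closest to Sprr1a by the same distance were Atf3, a stress-response transcription factor, at 0.61, Hspb1, a small heat shock protein, at 0.77, and Tnfrsf12a, the receptor of TWEAK, at 0.81, beside a spread of 2.26 for Sprr1a itself. Atf3 measured 0.326, 0.242 and 0.350 FPKM in control livers, 42.6, 42.8 and 50.2 FPKM in model livers and between 0.934 and 3.24 FPKM in the drug-treated livers. It was highest in the 3 model livers and, unlike Sprr1a, was also called above control with silibinin (1.09 ± 0.25) and phloridzin (1.19 ± 0.25). Among the remaining members, the closest genes were Ctps, Zfp9 and Golt1b for Krt8, Ptprcap, Lcp2 and Upk1b for Krt19, Samd8, Fcho2 and Abhd2 for Sox9, and Katnal1, Mmp9 and Flt4 for Cd24a. Of those beside Krt19, the nearer Ptprcap and Lcp2 are genes of leukocytes, and Upk1b is a mesothelial marker.

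A list of 26 genes of stressed and regenerating epithelium, written like all lists here with earlier results of these data known, had 23 tested genes, of which Clu, clusterin, was the most abundant at a mean of 198 FPKM. Of these 18 rose in the model, with a median difference of 1.70 beside 0.34 for all genes, among them Tnfrsf12a (3.66 ± 0.27), Anxa2 (3.35 ± 0.51), Tubb6 (3.25 ± 0.57) and Klf6 (2.76 ± 0.20). Against the model 6 fell with silibinin (median -0.69, all genes -0.15) and 5 with phloridzin (median -0.77, all genes -0.11), including Tnfrsf12a, Klf6 and Plaur with each drug. After median-ratio scaling 13 rose in the model (median 1.38, all genes -0.01), and 6 and 5 fell with silibinin and phloridzin (medians -0.48 and -0.62). Without phloridzin replicate 1, 8 fell with phloridzin.

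Of 15 tested partners of keratin filaments and genes of Mallory-Denk bodies, the keratin aggregates of injured hepatocytes, 5 rose in the model, with a median of 0.69. They included the chaperones Hspa1b (3.49 ± 0.37) and Hspb1 (3.27 ± 0.29), Vim, the intermediate filament of mesenchymal cells (1.48 ± 0.37), and the cross-linking enzyme Tgm2 (1.14 ± 0.21). After median-ratio scaling 3 rose, Hspa1b, Hspb1 and Vim, with a median of 0.33. With either drug 2 fell against the model: Hspb1 by -3.91 ± 0.29 with silibinin and -3.61 ± 0.29 with phloridzin, and Hspa1b by -2.92 ± 0.37 and -2.85 ± 0.37. Sqstm1, the p62 protein of these aggregates and the most abundant of the list at a mean of 122 FPKM, was not called. Hspb1, also among the genes closest to Sprr1a, measured 88.9, 183 and 93.7 FPKM in model livers and at most 12.9 FPKM in any other, so like Krt8 and Krt18 it was high in the model livers alone.

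Notch and YAP signals are known to guide cells towards the duct fate. Of 15 tested Notch genes, 1 rose in the model, the ligand Jag1 (1.09 ± 0.12), and of 17 tested genes of the Hippo-YAP pathway 2 rose, the target Cyr61 (1.65 ± 0.41) and the factor Tead1 (1.34 ± 0.21). At an unadjusted p below 0.05, 10 genes of each list were higher in the model, and voom called 4 of each. In either direction 6030 of the 13158 tested genes passed that unadjusted cut. The list medians were 0.37 and 0.57, beside 0.34 for all tested genes, of which 10.5 percent were called. After median-ratio scaling Cyr61 alone of both lists was called, and the list medians were 0.06 and 0.26. At the unadjusted cut 4 Notch and 5 Hippo-YAP genes were then higher, beside 4949 of 13113 genes in either direction. The most abundant genes were Notch2 (mean 12.4 FPKM) and Yap1 (22.6 FPKM). Against the model 0 genes of either list were called with either drug by limma. At an unadjusted p below 0.05, 3 Notch and 7 Hippo-YAP genes were lower with silibinin and 2 and 7 with phloridzin. In either direction 3844 and 3662 of 13158 genes passed that cut with silibinin and phloridzin. After median-ratio scaling 0 Notch and 5 Hippo-YAP genes were lower with silibinin, and 2 and 5 with phloridzin. Voom called 1, a Hippo-YAP gene with silibinin. Among 16 tested liver transcription factors beside Sox9, Sox4 rose against control in the model (1.14 ± 0.13), with silibinin (1.23 ± 0.13) and with phloridzin (1.17 ± 0.13), and Cebpb fell against the model with silibinin (-1.13 ± 0.22) and phloridzin (-1.12 ± 0.22). After scaling Sox4 was called with each drug but not in the model, Cebpb with neither drug, and Cebpa, the most abundant at a mean of 129 FPKM, was called lower in the model.

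Markers of other cells moved beside the members as well. Macrophage markers summed to 68.7 to 125 FPKM in control livers and 226 to 493 FPKM in all other livers, led by Lyz2, and 3 of 7 rose in the model, Gpnmb (4.73 ± 0.61), Trem2 (2.78 ± 0.37) and Lyz2 (2.16 ± 0.36). Stellate cell and myofibroblast markers summed to 79.1 to 91.8 FPKM in control livers and 136 to 322 FPKM elsewhere, led by Dcn, and 5 of 9 rose in the model, among them the collagens Col1a1 (4.35 ± 0.57) and Col3a1 (3.75 ± 0.48). With either drug 0 markers of these 2 lists were called against the model by limma or voom. Krt8, Krt18 and Sprr1a, which were selected on these contrasts, were called lower. Krt18 with phloridzin was not called in every alternative, so nothing is read from setting the members beside these lists. At an unadjusted p below 0.05, 2 stellate cell markers were lower with silibinin and 3 with phloridzin, and 0 macrophage markers with either. In either direction 3844 and 3662 of 13158 genes passed that cut. After median-ratio scaling 2 and 1 stellate cell markers were lower. Of hepatocyte markers 1 of 10 fell in the model, Cyp2e1 (-2.35 ± 0.39), which also fell with phloridzin against control (-2.56 ± 0.39). Of neutrophil markers, led by S100a8, 0 of 3 tested were called in model against control livers by limma or voom. At an unadjusted p below 0.05, 1 was higher as deposited and 0 after median-ratio scaling. Neutrophil marker sums ran from 6.58 to 80.7 FPKM, highest in phloridzin replicate 2. Of erythroid markers, led by Hbb-bs, 1 of 5 fell with each drug against control, Hba-a1. Their part in the members' values was not tested.

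In phloridzin against silibinin livers 3 of 13158 genes were called (0.0228 percent), and 0 of the 7 members by limma, with 494 genes and 0 members at an unadjusted p below 0.05 and 0 members called in the voom fit. All 10 members overlapped between both drug groups. The called genes, named after their values were seen, were Klhdc7a, Pcgf6 (-1.54 ± 0.16) and Wdr89 (-1.47 ± 0.16). Klhdc7a was listed at 0 in all control, model and silibinin livers and at 3.47, 1.81 and 2.61 FPKM with phloridzin, and no fold is given against livers listed at 0. For the 7 tested members the differences ran from -0.09 ± 0.23 for Sprr1a to 1.39 ± 0.69 for Tff3, and Krt19 was at 0.45 ± 0.21 (0.27 without phloridzin replicate 1 and 0.71 without phloridzin replicate 2). A difference that misses the threshold does not show that the drugs act alike.

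As deposited, 7 members lay higher in all model than in all control livers without overlap (Krt8, Krt18, Krt7, Krt19, Epcam, Sox9 and Sprr1a), and 1 lay lower (Tff3). Krt7 and Epcam are not among the tested genes, so 5 of the 7 tested members stand beside 45.1 percent of tested genes that lay higher, and 1 beside 6.92 percent that lay lower. After median-ratio scaling, a version of this count chosen after seeing the data, 5 lay higher, since Krt7 and Sox9 then overlapped, 4 of them tested beside 21.5 percent, and Tff3 lay lower beside 22.0 percent. In silibinin against model livers 3 members lay lower without overlap (Krt8, Krt18 and Sprr1a), beside 27.8 percent of tested genes, and Tff3 lay higher, beside 8.91 percent. In phloridzin against model livers the same 3 lay lower, beside 22.4 percent, and Tff3 higher, beside 8.21 percent. After scaling these members still lay apart from the model with each drug, and the untested Krt7 also lay higher with silibinin than in the model. Of tested genes 16.7 percent then lay lower and 17.7 percent higher with silibinin, and 15.4 and 15.7 percent with phloridzin. The members were selected on these contrasts and the comparisons share livers, so nothing is read from how the counts compare with the percentages.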

How the data were processed

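The deposited values are FPKM per transcript and liver, made by the authors with 1 column per liver; the header names no unit, which was read from the values. The submitters' processing notes name HISAT2 2.1.0, StringTie 1.3.3b, DESeq 1.28.0, FastQC 0.11.5 and build mm10, with no roles. FPKM of the 82136 transcripts with a gene symbol were summed per symbol. Where fragments were whole, steps between low values gave each liver's depth (98.7 to 98.9 percent of values under 20 fragments lay within 0.05 of a whole number). With Python 3.11.15, R 4.3.3 and limma 3.58.1, log2(FPKM + 1) of the 12 livers was fitted with a trend in the variance, for genes with a mean of at least 0.5 FPKM, and p-values were adjusted by Benjamini-Hochberg over all genes. The script was tested on simulated data. Groups came from the labels. Named genes were the members, up to 4 called genes of each list by size with its most abundant gene, and the 3 genes closest to each tested member; those of Krt18 and 1 duct marker are not reported here, not every other gene of this rule is named, and Sprr1b and the markers given as low in every liver were named after their values were seen. The members and lists were chosen with earlier results of these data known. Positions follow GENCODE M21. Alternatives varied pseudocount, filter, scaling, transcripts summed, variance model, replicate block, threshold and livers left out.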

Additional observations from a re-analysis of the deposited data

Results flagged for a closer look

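Transcripts that carry no gene symbol take no part in the gene sums, and a few of them lie inside the members. NONMMUT012603.2, inside the last exon of Sox9, had a mean of 3.84 ± 1.18 FPKM (SD, n = 3) in the model livers, above the 1.04 ± 0.479 FPKM of the control livers. NONMMUT005469.2, inside Cd24a, was listed at 0 in all control livers and had a mean of 0.0487 FPKM in the phloridzin livers, from values of 0.0353, 0.0862 and 0.0245 FPKM, a very low level. It was also listed in model replicates 2 and 3, at 0.0712 and 0.0300 FPKM, and in silibinin replicate 2, at 0.0217 FPKM. Both lie on the strand of the member they overlap, and whether their fragments came from the member was not tested.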

How the results depend on the processing

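Of 1170 log2 differences of members under the alternatives, 12 gained a call, Krt18 and Krt19 in model against control once each only because the rule was then the adjusted p alone, 23 lost it, and 27 had the other sign, 0 of these past the limma rule in either version. Of 3078 counts of called genes in the lists 207 moved by over 1.5 times or to or from 0. The counts depended more on the setting, and the cause was not tested. For model against control the 1382 genes called became 2596 with a pseudocount of 0.1, 2711 with 0.01, 4594 by adjusted p alone and 3137 by voom, and the members called became 4 by adjusted p alone and 2 to 3 without single livers. For silibinin against model the 526 genes became 1849 by adjusted p alone and 866 by voom. For phloridzin against model the 463 genes became 702 and 701 with pseudocounts of 0.1 and 0.01, 1691 by adjusted p alone and 745 by voom, with 2 members in the fit of 2 groups and 2 to 4 without single livers. For phloridzin against silibinin the 3 genes became 1 with 0.01, 5 with the highest transcript alone and 0 in the limma fit of 2 groups. That fit of 2 groups had 445 genes at an unadjusted p below 0.05. Without single livers they became 1 (without silibinin replicate 2 or phloridzin replicate 3) to 5 (without silibinin replicate 1 or phloridzin replicate 2). Voom, fitted to all 12 livers, called 3.

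For silibinin against control the 261 genes became 828 with a pseudocount of 0.1, 897 with 0.01, 117 with the highest transcript alone, 661 by adjusted p alone and 783 by voom, and 102 (without silibinin replicate 2) to 399 (without phloridzin replicate 1) without single livers, with 103 without silibinin replicate 1 and 135 and 153 without control replicates 1 and 2. Members called became 1 with 0.1, with 0.01 and by voom. For phloridzin against control the 398 genes became 1103 with 0.1, 1182 with 0.01, 246 after median-ratio scaling, 190 with the highest transcript alone, 143 in the fit of 2 groups, 1051 by adjusted p alone and 1016 by voom, and 210 (without control replicate 1) to 634 (without phloridzin replicate 3) without single livers, with 238 without control replicate 2 and 245 without phloridzin replicate 1. Members called became 1 with no filter, after scaling, with the highest transcript alone and by voom, 0 in the fit of 2 groups, and 1 to 2 without single livers.

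The differences that took the other sign were small ones. After median-ratio scaling they were -0.017 for Cd24a in model against control, -0.24 and -0.051 for Krt8 with silibinin and phloridzin against control, and 0.10 for Sox9 with each drug and for Cd24a with phloridzin against the model. Sox9 in phloridzin against silibinin was -0.23 with the overlapping transcript added. Without single livers Sox9 ran from -0.38 to 0.12 for silibinin against model, from -0.23 to 0.21 for phloridzin against model and from -0.17 to 0.35 for phloridzin against silibinin. Cd24a ran from -0.13 to 0.11 for phloridzin against model and from -0.27 to 0.10 for silibinin against control. Krt19 in silibinin against model ran from -0.078 to 0.11, Krt8 in silibinin against control from -0.089 to 0.17, and Krt18 in phloridzin against control from -0.24 to 0.079.

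The labels do not pair livers by replicate number. Of 18 same-number pairs 1 had a correlation of deviations above 0.1, with a range from -0.0909 to 0.101. With 3 livers a group such correlations cannot exclude a pairing or a shared batch. With the replicate block the genes called were 1363, 508, 449, 3, 237 and 347 in the order above, the members 2, 3, 4, 0, 0 and 2, and no member's call changed. Voom, the added overlapping transcripts and the scaled count of members without overlap were chosen after seeing the data. After scaling, the members higher in all model than in all control livers became 5 from 7 (among tested members 4 from 5) while the share of all tested genes became 21.5 from 45.1 percent, and those higher with silibinin than in the model became 2 from 1 (the untested Krt7 added) while that share became 17.7 from 8.91 percent. Sox9 with its overlapping transcript, scaled as a further choice made after seeing the data, lost its call in model against control (0.68). Low depth limits Krt7, Krt23 and Epcam, with 12 to 207 fragments per liver.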
